A study of Mus musculus with 6 samples.

Results

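The RNA of classical cadherins and catenins, the proteins of the adherens junction, was read in cultured mouse aortic smooth muscle cells with and without the lysine methyltransferase SMYD2. The members were 10 genes chosen by symbol, *Cdh2*, *Cdh3*, *Cdh4*, *Cdh6*, *Cdh11*, *Cdh13*, *Ctnnb1*, *Ctnna1*, *Ctnnd1* and *Jup*, and all 10 were found among the 18112 genes of the table. Of these, 8 had a mean of at least 0.5 FPKM over the 6 libraries and were tested, while *Cdh4* and *Cdh6* lay under that level. FPKM counts the fragments of a gene relative to the length of its transcript and to all mapped fragments of the library, so that levels of different genes can be set side by side.

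The Flox group (*Smyd2* fl/fl, 3 libraries) came from mice on a C57BL/6 background that carry loxP sites around exon 2 of *Smyd2* on both alleles and have no Cre. The SMYD2 KO group (*Smyd2* SMC-/-, 3 libraries) carried the same alleles and a *Tagln*-Cre (SM22α-Cre) transgene, which deletes exon 2 in cells that use the *Tagln* promoter. The cells were digested from the medial layer of the aorta of mice 8 to 10 weeks old, after removal of endothelium and adventitia. The labels give passage 6 in medium with 10% serum and an Illumina library kit, whereas the methods give passage 4, overnight starvation and a BGI library. How many animals entered a library is not given in the sources used here, so p-values measure only the spread between these samples, which may be technical. Sequencing depth, fitted to the spacing of the lowest FPKM values, came to about 18600000, 20050000 and 19800000 fragments for Flox replicates 1, 2 and 3 and about 17450000, 19500000 and 19550000 for SMYD2 KO replicates 1, 2 and 3. A single fragment on a transcript 2000 bases long was then worth between 0.0249 and 0.0287 FPKM.

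Classical cadherins are transmembrane proteins that bind the same cadherin on a neighbouring cell through their extracellular repeats. Inside the cell, p120 catenin holds the cadherin at the membrane, while beta-catenin or plakoglobin binds the distal tail and links it through alpha-catenin to actin. Vascular smooth muscle is known for N-cadherin and T-cadherin, and beta-catenin also acts in the nucleus as the effector of canonical Wnt signalling.

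*Smyd2* itself was at 7.87, 3.10 and 3.0 FPKM in Flox replicates 1, 2 and 3 and at 1.67, 0.40 and 0.80 FPKM in SMYD2 KO replicates 1, 2 and 3. Every SMYD2 KO library lay below every Flox library, with some RNA left in each. The table gives no values by exon, so RNA with and without exon 2 cannot be told apart. The log2 fold change of FPKM + 1, a scale that understates the change of genes at low FPKM, was -1.48 (standard error 0.389, limma, Benjamini-Hochberg adjusted p = 0.105, or 0.0189 when same-numbered libraries were treated as a block). Among 7 smooth muscle markers, *Acta2* was the most abundant, at 761, 682 and 683 FPKM in Flox and at 201, 268 and 262 FPKM in SMYD2 KO. Its groups were far apart (log2 fold change -1.55, limma adjusted p = 0.00803), although the adjusted p was 0.0541 without Flox replicate 2, 0.0615 without Flox replicate 3 and 0.0533 without SMYD2 KO replicate 3. It was the only marker of that list called with or without the block. The summed level of the list was 922, 821 and 814 FPKM in Flox and 263, 429 and 376 FPKM in SMYD2 KO. *Lmod1* was at 3.28, 2.71 and 2.83 FPKM in Flox and at 1.22, 5.44 and 6.02 FPKM in SMYD2 KO. It passed as higher in SMYD2 KO in replicates 2 and 3 alone (log2 fold change 0.83, limma adjusted p = 0.00335) and without SMYD2 KO replicate 1 (0.0489). The fit of replicates 2 and 3 alone called 29.0% of all tested genes, a share that stands beside every gene said below to pass in it. The log2 fold changes of *Tagln* and *Cnn1* were -0.92 and -0.91, or -0.08 and -0.07 in replicates 2 and 3 alone. *Myh11* and *Myocd* were at no more than 0.22 and 0.48 FPKM in any library, while *Smtn* was at 55.0, 52.0 and 52.8 FPKM in Flox and at 45.9, 63.1 and 46.9 FPKM in SMYD2 KO. Libraries of replicate 1 stood apart from the others in both groups along a principal component that held 50.2% of the variance. Along it each SMYD2 KO library was also shifted the same way from the Flox library of its number. Along the next component, with 33.1%, the groups did not overlap.

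The deposited table gives no positions, so these were read from the GENCODE M21 annotation of GRCm38 through the RefSeq transcripts listed for each gene. *Cdh11* (NCBI Gene 12552) lay on chromosome 8 from 102632095 to 102785642, *Cdh3* (12560) on the same chromosome from 106510891 to 106557297, and *Cdh13* (12554) from 118283733 to 119324921. *Cdh2* (12558) lay on chromosome 18 from 16588877 to 16809246 and *Ctnna1* (12385) on the same chromosome from 35118859 to 35254779. *Ctnnb1* (12387) lay on chromosome 9 from 120929216 to 120960507, *Ctnnd1* (12388) on chromosome 2 from 84600071 to 84650765, and *Jup* (16480) on chromosome 11 from 100368958 to 100397763. The 3 member genes of chromosome 8 shared it with *Cdh1*, which starts at 106603351, past the end of *Cdh3* and on the same strand. *Cdh4* (12561) lay on chromosome 2 from 179442431 to 179899373 and *Cdh6* (12563) on chromosome 15 from 13028701 to 13173675.

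In Flox the members ranked by mean FPKM as *Ctnna1* (201 ± 9.02, SD, n = 3), *Ctnnb1* (157 ± 34.4), *Cdh2* (129 ± 19.8), *Ctnnd1* (115 ± 11.5), *Jup* (95.5 ± 15.3), *Cdh13* (36.2 ± 4.46), *Cdh3* (22.2 ± 10.7) and *Cdh11* (5.10 ± 2.66). The ranges of neighbours in this order overlapped from *Ctnnb1* down to *Jup*, while the other neighbours lay apart. The range of *Jup* lay below those of *Ctnnb1* and *Cdh2*, and *Jup* was below *Ctnnd1* in each Flox library. In SMYD2 KO, *Cdh11* stood above *Cdh3*, at 32.9 ± 14.7 against 24.1 ± 11.2 FPKM (SD, n = 3 each), with overlapping ranges. *Ctnna1* and *Ctnnb1* had nearly the same mean there, 154 ± 14.8 and 154 ± 12.5 FPKM (SD, n = 3 each), followed by *Cdh2* (93.2 ± 27.6), *Ctnnd1* (87.8 ± 8.53), *Jup* (67.5 ± 8.12) and *Cdh13* (45.1 ± 26.1).

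**Figure D1:**
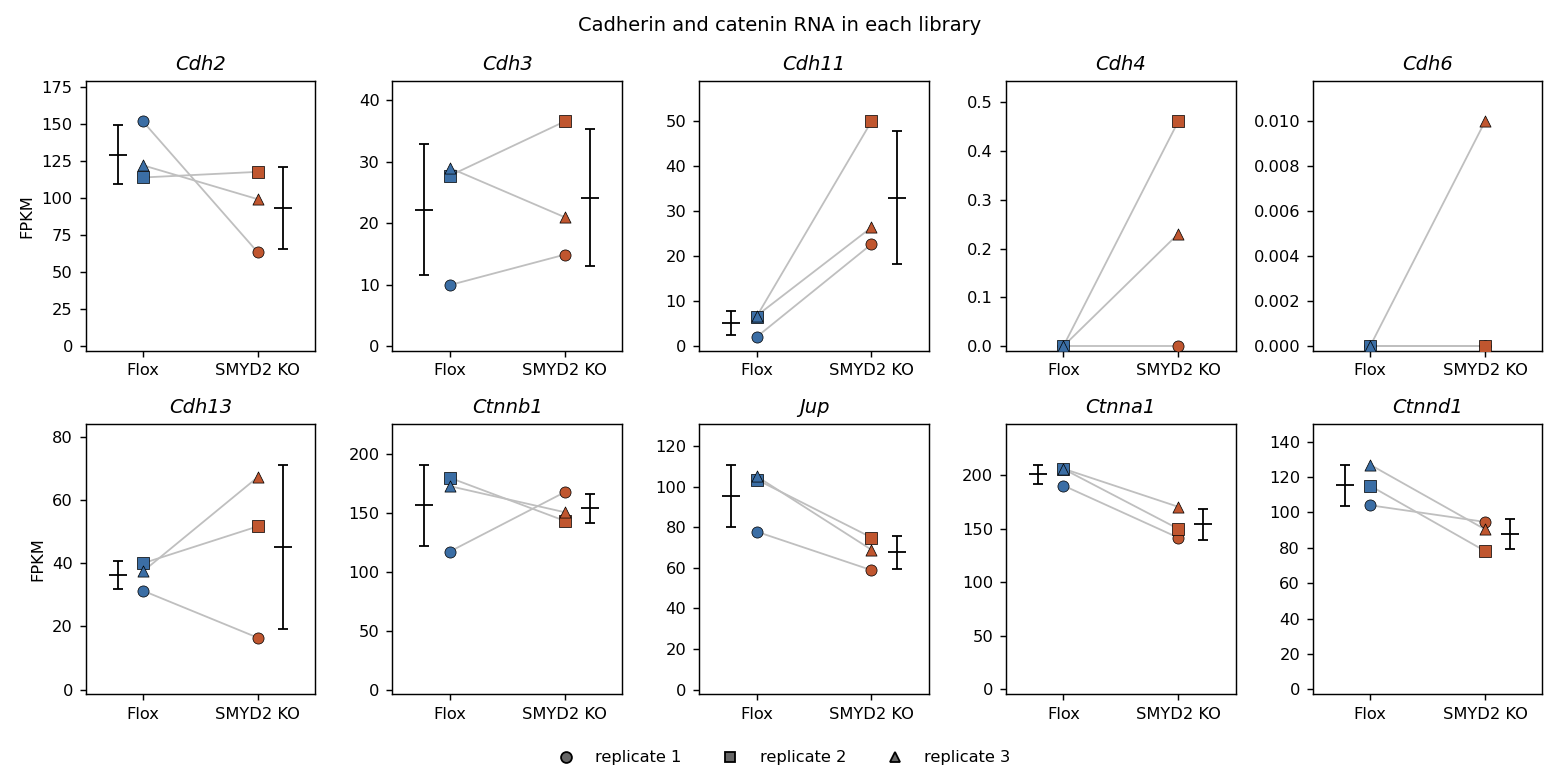
FPKM of the 10 members (y axis, from 0, a scale of its own in each panel) in Flox and SMYD2 KO libraries, with the marker shape giving the replicate number, grey lines joining same-numbered libraries and black bars giving mean ± SD of 3 libraries for the 8 tested genes. *Cdh11* lay between 2.03 and 6.72 FPKM in Flox and between 22.6 and 49.8 FPKM in SMYD2 KO, and *Ctnna1*, *Ctnnd1* and *Jup* were lower in every SMYD2 KO library than in any Flox library.

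*Cdh2* encodes N-cadherin, the type I cadherin most abundant here. It was at 151, 114 and 122 FPKM in Flox and at 63.2, 118 and 99.0 FPKM in SMYD2 KO. The groups overlapped, and the low value was that of SMYD2 KO replicate 1. The log2 fold change was -0.50 (standard error 0.249, limma adjusted p = 0.319), made up of -1.25, 0.05 and -0.30 within replicates 1, 2 and 3. In replicates 2 and 3 alone it was -0.13 (limma adjusted p = 0.482), so the gap between the groups was widest in replicate 1.

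*Cdh3* encodes P-cadherin, a type I cadherin best known from epithelia. It was at 9.94, 27.7 and 29.0 FPKM in Flox and at 14.9, 36.5 and 21.0 FPKM in SMYD2 KO. Its libraries divided by replicate and not by genotype, with replicate 1 lowest in each group. The log2 fold change was 0.16 (95% interval -0.98 to 1.30, limma adjusted p = 0.899), and its sign turned in replicates 2 and 3 alone (-0.03), without Flox replicate 1 (-0.32) and without SMYD2 KO replicate 2 (-0.18).

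*Cdh11* encodes cadherin-11, a type II cadherin of mesenchymal cells. It was at 2.03, 6.54 and 6.72 FPKM in Flox replicates 1, 2 and 3 and at 22.6, 49.8 and 26.3 FPKM in SMYD2 KO replicates 1, 2 and 3. The lowest SMYD2 KO library was above the highest Flox library, and in both groups replicate 1 was the lowest. In approximate fragments these values stood for 210, 730 and 741 in Flox and 2195, 5405 and 2865 in SMYD2 KO. The ratio of the group means was 6.46, and the log2 fold change was 2.51 (standard error 0.449, 95% interval 1.44 to 3.59). The differences within replicates 1, 2 and 3 were 2.96, 2.75 and 1.82 on the log2 scale. It was the only member called at a limma adjusted p under 0.05 (0.0455), that is 1 of 8 tested, beside 2.44% of all tested genes.

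That call was kept in some fits and lost in others. In limma the adjusted p of *Cdh11* was 0.0135 with the replicate block, 0.00328 with a block for replicate 1 against the others, 0.00663 in replicates 2 and 3 alone and 0.0370 after TPM rescaling. It was 0.0531 with a pseudocount of 0.1 and 0.0723 with no filter on low FPKM. It was 0.0533, 0.136 and 0.127 without Flox replicate 1, 2 or 3, and 0.156 and 0.167 without SMYD2 KO replicate 2 or 3. Its log2 fold change in these fits stayed between 2.07 and 2.78. In these bulk samples, more or fewer cells that make a transcript and more or less of it per cell cannot be told apart.

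Because FPKM is scaled by length, the RNA of the classical cadherins can be added up within a library. Over the 15 classical cadherin genes in the table the sum was 167, 161 and 172 FPKM in Flox replicates 1, 2 and 3 and 103, 213 and 154 FPKM in SMYD2 KO, so that the total did not separate the groups. Its make-up did. *Cdh11* held 1.22%, 4.07% and 3.90% of the sum in Flox and 21.8%, 23.4% and 17.1% in SMYD2 KO, while *Cdh2* held 90.8%, 70.7% and 70.8% in Flox and 61.1%, 55.2% and 64.5% in SMYD2 KO. N-cadherin RNA was thus the largest share in each of the 6 libraries, at 74.6, 17.4 and 18.1 times cadherin-11 RNA in Flox and 2.80, 2.36 and 3.76 times in SMYD2 KO. As parts of the same sum the shares are tied, so a larger *Cdh11* share leaves less for *Cdh2*. The FPKM of *Cdh2* itself overlapped between the groups. The share of *Cdh3* was 13.3 ± 6.40% in Flox and 15.1 ± 1.84% in SMYD2 KO (SD, n = 3 each), a difference within the spread.

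**Figure D2:**
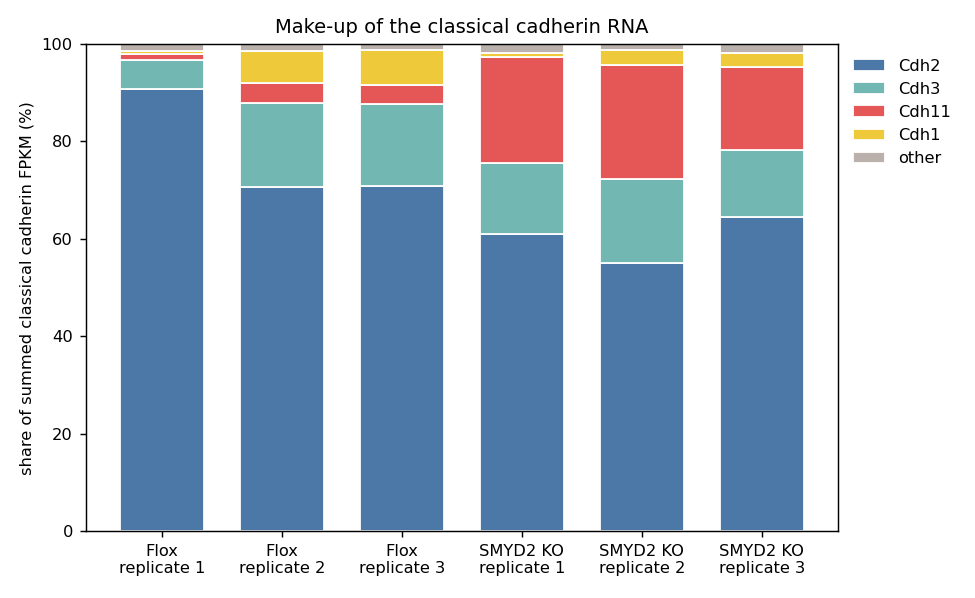
Share of the summed FPKM of 15 classical cadherin genes (y axis, %) held by *Cdh2*, *Cdh3*, *Cdh11*, *Cdh1* and the remaining genes in each of the 6 libraries (stacked bars). The *Cdh11* share was at most 4.07% in Flox and at least 17.1% in SMYD2 KO.

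*Cdh4* (R-cadherin) and *Cdh6* (K-cadherin) were the lowest members. *Cdh4* was listed at 0 in the 3 Flox libraries and in SMYD2 KO replicate 1, and at 0.46 and 0.23 FPKM in SMYD2 KO replicates 2 and 3, about 57 and 28 fragments. *Cdh6* was listed at 0 in all libraries but SMYD2 KO replicate 3, where 0.01 FPKM stood for about 2 fragments. No fold change is given against a group at 0. Exact two-sided permutation gave p = 0.40 for *Cdh4* and p = 1 for *Cdh6*. Without the filter on low FPKM their adjusted p in limma was 0.355 and 0.911.

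*Cdh13* encodes T-cadherin, which has cadherin repeats but is anchored by a lipid and has no tail to bind catenins. It was at 31.3, 40.0 and 37.4 FPKM in Flox and at 16.4, 51.7 and 67.3 FPKM in SMYD2 KO. The SMYD2 KO libraries lay on either side of the Flox range, replicate 1 below it and replicates 2 and 3 above. The log2 fold change was 0.10 (95% interval -1.07 to 1.27, limma adjusted p = 0.941), against -0.89, 0.36 and 0.83 within replicates 1, 2 and 3. Its sign turned without SMYD2 KO replicate 2 (-0.10) or replicate 3 (-0.29). In replicates 2 and 3 alone it was 0.60 (limma adjusted p = 0.0161), and that fit called 4 of the 8 members, *Cdh11*, *Cdh13*, *Ctnnd1* and *Jup*, beside 29.0% of all tested genes.

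Of the 4 catenins, 3 were lower in every SMYD2 KO library than in any Flox library and 1 overlapped, and the differences were smaller than that of *Cdh11*. *Ctnna1*, the gene of alpha-E-catenin, the link to actin, was at 190.4, 206 and 206 FPKM in Flox and at 142, 150.0 and 171 FPKM in SMYD2 KO. *Ctnnd1*, the gene of p120 catenin, was at 104, 115 and 127 FPKM in Flox and at 94.6, 78.2 and 90.4 FPKM in SMYD2 KO. *Jup*, the gene of plakoglobin, which can take the place of beta-catenin and also serves desmosomes, was at 77.8, 103 and 105 FPKM in Flox and at 58.8, 74.9 and 68.9 FPKM in SMYD2 KO. For each of these 3 genes the groups did not overlap (two-sided exact permutation p = 0.1, the smallest that 3 against 3 allow). With *Cdh11* that made 4 of the 8 tested members, beside 28.1% of all tested genes.

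The log2 fold changes of *Ctnna1*, *Ctnnd1* and *Jup* were -0.38, -0.39 and -0.49 (standard errors 0.124, 0.136 and 0.168), or ratios of the group means of 0.767, 0.761 and 0.708. None of them passed the test in all 6 libraries without a block, with limma adjusted p of 0.158, 0.182 and 0.178. With the replicate block *Jup* passed (limma adjusted p = 0.0439), which made 2 of 8 members called beside 10.4% of all tested genes. A block for replicate 1 against the others called *Jup* (0.0159) and also *Ctnna1* (limma adjusted p = 0.0390). The differences of *Jup* within replicates 1, 2 and 3 were -0.40, -0.46 and -0.60, and those of *Ctnna1* were -0.42, -0.45 and -0.27. Those of *Ctnnd1* were -0.14, -0.55 and -0.48, smallest in replicate 1. Rescaling each library to TPM, which makes all values of a library sum to the same total, moved the median log2 difference over the tested genes by 0.11. The log2 fold changes of *Ctnna1*, *Ctnnd1* and *Jup* were then -0.26, -0.27 and -0.37 (limma adjusted p = 0.299, 0.348 and 0.257). Relative to that shift they were -0.37, -0.38 and -0.48, but taking it off largely undoes the rescaling and is no separate check. After quantile normalization they were -0.29, -0.34 and -0.43 (limma adjusted p = 0.235, 0.232 and 0.236).

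*Ctnnb1*, the gene of beta-catenin, was at 117, 180.1 and 173 FPKM in Flox and at 168, 144 and 151 FPKM in SMYD2 KO. The SMYD2 KO values lay inside the Flox range. The log2 fold change was -0.00 (95% interval -0.46 to 0.45, limma adjusted p = 0.996), made up of 0.51, -0.33 and -0.20 within replicates 1, 2 and 3. In replicates 2 and 3 alone it was -0.26 (limma adjusted p = 0.111). Without Flox replicate 1 or SMYD2 KO replicate 1 it was -0.20 and -0.07. Its sign turned in several other fits. The log2 fold change was 0.12 after TPM rescaling, or 0.01 relative to the shift of all tested genes, and 0.09 after quantile normalization. Without Flox replicate 2 or 3 it was 0.11 and 0.08, and without SMYD2 KO replicate 2 or 3 it was 0.05 and 0.01. Plakoglobin RNA was 0.663, 0.574 and 0.607 times beta-catenin RNA in Flox and 0.351, 0.522 and 0.457 times in SMYD2 KO, with no overlap between the groups. The sum of the 4 catenins over that of the classical cadherins was 3.41 ± 0.428 in Flox and 3.23 ± 1.19 in SMYD2 KO (SD, n = 3 each), a difference within the spread.

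**Figure D3:**
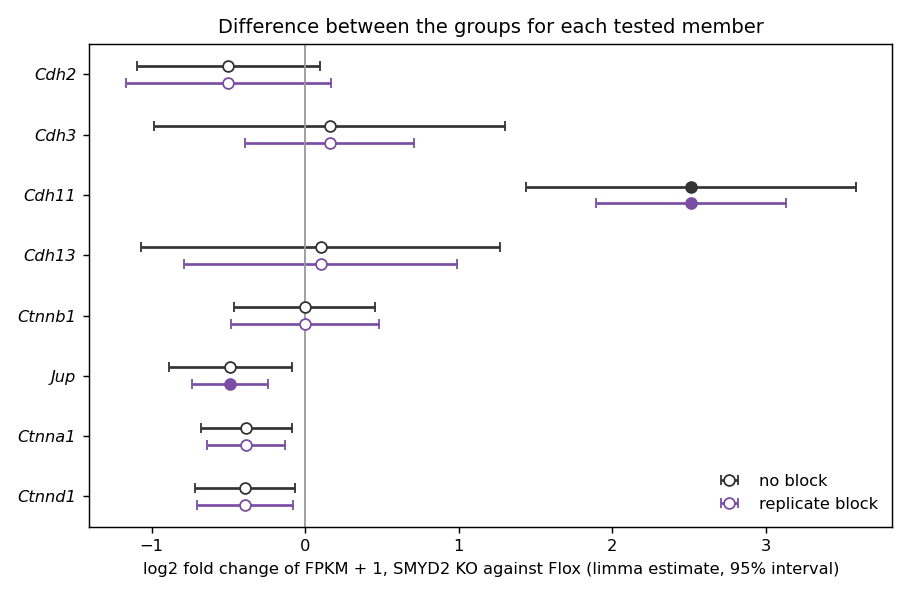
Log2 fold change of FPKM + 1 in SMYD2 KO against Flox (x axis) for the 8 tested members, as limma estimates (points) with 95% intervals (bars), without a block (black) and with the replicate block (purple). Filled points have an adjusted p under 0.05, and *Cdh11*, at 2.51, was called in both fits and *Jup*, at -0.49, with the block.

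Promoter windows of 300 bases around a gene's start were read from RefSeq on GRCm38.p6, where 4 of the 10 members had an entry. Those of *Jup* and *Ctnnd1* are shown because both genes were lower in every SMYD2 KO library. Each was searched on both strands for CACCTG, an E-box of the kind Snail proteins bind, and for CCAAT, and matches are in capitals, so that a match on the opposite strand appears as ATTGG. The *Jup* window is chr11:100397741-100398040 and the *Ctnnd1* window, the one of its 2 that holds the start of the GENCODE gene, is chr2:84650691-84650990, both on the minus strand.
Jup: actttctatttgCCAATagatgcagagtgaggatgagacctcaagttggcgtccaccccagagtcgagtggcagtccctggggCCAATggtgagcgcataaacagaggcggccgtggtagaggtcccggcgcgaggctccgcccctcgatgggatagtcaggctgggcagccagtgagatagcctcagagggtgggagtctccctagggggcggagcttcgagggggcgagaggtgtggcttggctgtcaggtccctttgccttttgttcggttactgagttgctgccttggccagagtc
Ctnnd1: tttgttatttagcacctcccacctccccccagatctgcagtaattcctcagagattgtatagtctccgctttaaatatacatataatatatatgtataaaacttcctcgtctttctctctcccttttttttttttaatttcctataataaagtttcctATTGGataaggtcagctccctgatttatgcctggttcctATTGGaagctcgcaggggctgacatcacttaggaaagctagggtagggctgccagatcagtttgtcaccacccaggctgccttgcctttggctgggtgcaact
Neither window held the E-box letters, which 20.2% of 32851 promoters of this length did. Each held CCAAT at 2 places, where 37.4% of those promoters held it at least once. Of the 2 windows of *Ctnnb1*, whose groups overlapped, 1 also held CCAAT at 2 places and the other held none, and neither held the E-box letters. A match is a description of letters, and binding was not measured.

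The genes around the members were read from 8 lists, of which 90 of 95 genes were in the table and 64 were tested. Of these, 4 were called without a block, 1 higher and 3 lower in SMYD2 KO, and 11 with the replicate block, 6 higher and 5 lower. The count without a block was 0 without Flox replicate 2, 0 without Flox replicate 3, 1 without SMYD2 KO replicate 2, 1 without SMYD2 KO replicate 3 and 9 without SMYD2 KO replicate 1. By limma's unadjusted p, 20 of the 64 were under 0.05, beside 2556 of the 12565 tested genes. The median log2 fold change was -0.09 over the 64 and -0.19 over the 8 members, beside -0.02 over all tested genes. Of all tested genes, 154 were called higher and 152 lower, or 593 and 719 with the block, and after TPM rescaling the split was 247 higher and 99 lower.

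Among 25 partners of the adherens junction, 24 were tested, and 1 rose and 1 fell in the fit without a block, which called 2.44% of all tested genes. *Ptprk*, a receptor phosphatase of cell contacts, was at 24.8, 24.5 and 26.8 FPKM in Flox and at 5.87, 8.29 and 8.21 FPKM in SMYD2 KO (log2 fold change -1.65, limma adjusted p = 0.00730). *Ptpn14*, a cytosolic phosphatase, was at 10.2, 11.2 and 15.3 FPKM in Flox and at 29.1, 27.6 and 28.2 FPKM in SMYD2 KO (log2 fold change 1.17, limma adjusted p = 0.0235). For each the groups were far apart. In limma the adjusted p of *Ptprk* was 0.0590 and 0.0615 without Flox replicate 2 or 3, and that of *Ptpn14* was 0.128 and 0.0529 without these and 0.115 and 0.136 without SMYD2 KO replicate 2 or 3.

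The partners called with the replicate block and not without it included *Nectin2* and *Plekha7*. *Nectin2*, a nectin that forms junctions beside cadherins, was at 19.1, 22.9 and 18.6 FPKM in Flox and at 29.4, 34.1 and 42.7 FPKM in SMYD2 KO (log2 fold change 0.77, limma adjusted p = 0.0434 with the block and 0.0736 without). *Plekha7*, a binder of p120 catenin, was at 3.44, 4.93 and 5.45 FPKM in Flox and at 9.08, 7.75 and 10.7 FPKM in SMYD2 KO (log2 fold change 0.87, limma adjusted p = 0.0398 and 0.0782). The groups overlapped for neither. *Nectin2* also passed without a block after TPM rescaling (limma adjusted p = 0.0492) and without SMYD2 KO replicate 1 (0.0428). The most abundant partners were the actin-linked *Zyx*, *Vcl* and *Actn4*, with means over the 6 libraries of 857, 159 and 148 FPKM. None of them was called with or without the block, while *Zyx* passed as higher in SMYD2 KO in replicates 2 and 3 alone (log2 fold change 0.69, limma adjusted p = 0.00739).

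Of 9 other catenins and plakophilins 4 were tested. *Pkp2*, a plakophilin of desmosomes, was at 6.50, 4.38 and 4.17 FPKM in Flox and at 1.84, 1.67 and 1.64 FPKM in SMYD2 KO. It fell by 1.13 on the log2 scale (limma adjusted p = 0.0424), a call that was lost without Flox replicate 2 (0.153) or 3 (0.143), without SMYD2 KO replicate 2 (0.158) or 3 (0.186), with no filter on low FPKM (0.0573) and with TPM rescaling (0.0525). *Pkp4*, a p120-like protein of junctions, was at 19.4, 18.1 and 18.5 FPKM in Flox and at 26.9, 36.2 and 38.5 FPKM in SMYD2 KO (log2 fold change 0.81, limma adjusted p = 0.0585, or 0.0376 with the replicate block, 0.0433 after TPM rescaling and 0.0153 without SMYD2 KO replicate 1). The groups overlapped for neither gene. *Ctnnal1* and *Arvcf*, with means of 14.8 and 4.90 FPKM, were not called with or without the block. *Ctnnal1* passed as higher in SMYD2 KO in replicates 2 and 3 alone (log2 fold change 0.74, limma adjusted p = 0.00513).

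Of 5 desmosome genes 4 were in the table, and most were nearly silent. *Dsp* reached at most 0.13 FPKM, *Dsg2* at most 0.02 FPKM and *Dsc2* at most 0.01 FPKM. *Perp*, the only tested gene of the list, was at 11.6, 23.7 and 25.3 FPKM in Flox and at 4.26, 20.4 and 8.96 FPKM in SMYD2 KO, with overlapping groups and no call (limma adjusted p = 0.383).

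Cadherin repressors are transcription factors known to silence *Cdh1*, the gene of E-cadherin. Of 6 listed and tested, 1 was called, beside 2.44% of all tested genes. This was *Snai1* (Snail), at 36.8, 28.1 and 29.6 FPKM in Flox and at 12.8, 11.0 and 12.5 FPKM in SMYD2 KO (log2 fold change -1.31, limma adjusted p = 0.0123). All SMYD2 KO libraries lay far below the Flox libraries. Without Flox replicate 2 or 3 or SMYD2 KO replicate 2 or 3 its adjusted p in limma was 0.0611, 0.0783, 0.0775 and 0.0744. *Snai2* (Slug) was at 39.4, 33.6 and 37.3 FPKM in Flox and at 29.4, 8.48 and 7.71 FPKM in SMYD2 KO, a gap wider in replicates 2 and 3 than in replicate 1 (log2 fold change -1.47, limma adjusted p = 0.153). The groups did not overlap. The limma adjusted p of *Snai2* was 3.20e-05 in replicates 2 and 3 alone, 0.00384 without SMYD2 KO replicate 1 and 0.0323 with a block for replicate 1 against the others. *Tcf3* and *Zeb1* had means of 36.1 and 26.1 FPKM and were not called with or without the block. *Tcf3* passed as lower in SMYD2 KO in replicates 2 and 3 alone (log2 fold change -0.48, limma adjusted p = 0.0105).

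*Cdh1* was 1 of 2 tested genes among 13 other classical cadherins, of which 10 were in the table. It was at 1.02, 10.7 and 12.4 FPKM in Flox and at 0.86, 6.73 and 4.40 FPKM in SMYD2 KO. As for its neighbour *Cdh3*, the low libraries were those of replicate 1 in both groups, and the groups overlapped (log2 fold change -0.68, limma adjusted p = 0.721). The differences within replicates 1, 2 and 3 were -0.12, -0.60 and -1.31. In replicates 2 and 3 alone *Cdh1* passed the test (log2 fold change -0.96, limma adjusted p = 0.00806), in a fit that called 29.0% of all tested genes. *Cdh24*, the other tested gene, had a mean of 1.54 FPKM and was not called, and *Cdh18* had a mean of 0.418 FPKM.

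**Figure D4:**
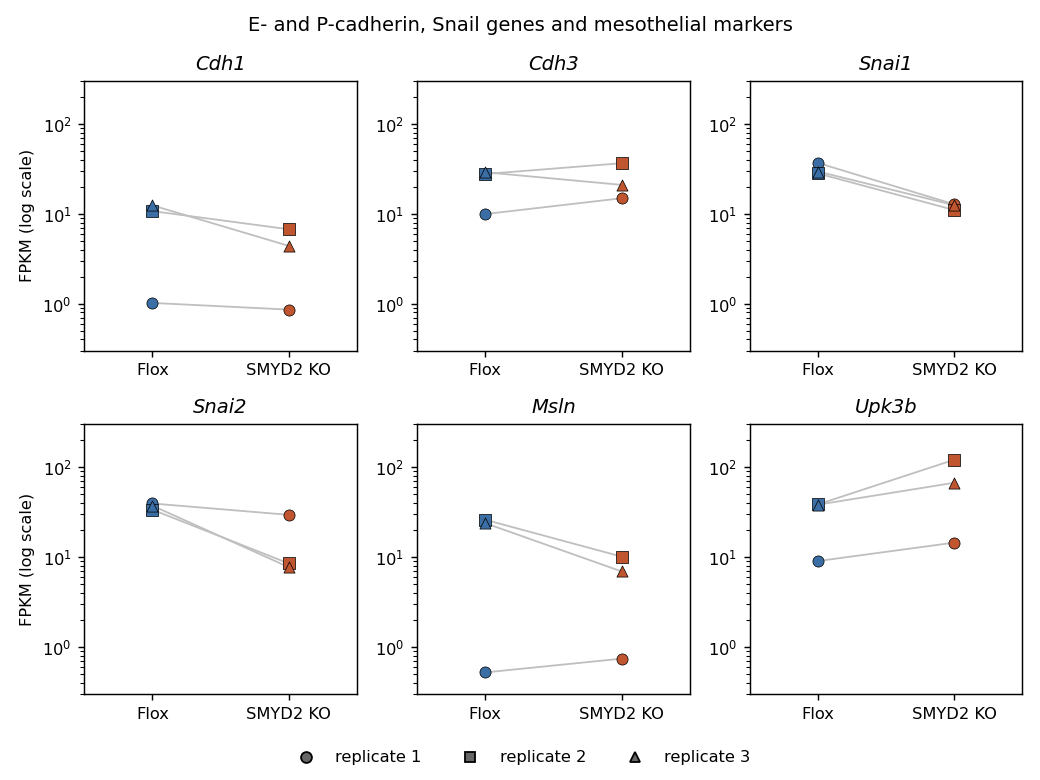
FPKM (y axis, log scale) of *Cdh1*, *Cdh3*, the repressors *Snai1* and *Snai2* and the mesothelial markers *Msln* and *Upk3b* in each library, with the marker shape giving the replicate number and lines joining same-numbered libraries. *Cdh1* was at 1.02 and 0.86 FPKM and *Msln* at 0.52 and 0.74 FPKM in the replicate 1 libraries, while *Snai1* divided by genotype, from 28.1 to 36.8 FPKM in Flox and from 11.0 to 12.8 FPKM in SMYD2 KO.

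Markers of other cells are given beside these values. The 3 mesothelial markers, all in the table, summed to 10.2, 67.3 and 64.8 FPKM in Flox and to 17.2, 137 and 79.2 FPKM in SMYD2 KO, lowest in replicate 1 as *Cdh1* and *Cdh3* were. The most abundant was *Upk3b*, at 9.02, 38.5 and 38.2 FPKM in Flox and at 14.5, 121 and 67.0 FPKM in SMYD2 KO (limma adjusted p = 0.0491 with the replicate block and 0.579 without). *Wt1*, a marker of lower level, was at 0.68, 2.80 and 2.73 FPKM in Flox and at 1.98, 5.97 and 5.23 FPKM in SMYD2 KO (limma adjusted p = 0.0330 with the block and 0.369 without). The groups overlapped for both, while each SMYD2 KO library was above the Flox library of its number. *Msln* went the other way in replicates 2 and 3, at 0.52, 26.0 and 23.8 FPKM in Flox and at 0.74, 10.1 and 6.92 FPKM in SMYD2 KO (log2 fold change -0.91, limma adjusted p = 0.748, or -1.46 and 0.000965 in replicates 2 and 3 alone). Its log2 fold change ran from -2.27 to -0.10 with single libraries left out.

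The 5 epithelial markers, all in the table and *Cdh1* among them, summed to 49.2, 69.7 and 67.8 FPKM in Flox and to 9.70, 27.6 and 13.4 FPKM in SMYD2 KO. Most of that was *Krt19*, at 47.8, 57.6 and 54.3 FPKM in Flox and at 8.71, 20.5 and 8.53 FPKM in SMYD2 KO (log2 fold change -2.10, limma adjusted p = 0.0317). Its adjusted p in limma was 0.0607, 0.142 and 0.144 without Flox replicate 1, 2 or 3, 0.138 without SMYD2 KO replicate 3 and 0.0555 with no filter on low FPKM. *Epcam*, *Krt8* and *Krt18* reached at most 0.06, 0.15 and 1.10 FPKM.

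The 6 markers of adventitial fibroblasts, all in the table, summed to 229.7, 819.7 and 689 FPKM in Flox and to 77.7, 548 and 499.8 FPKM in SMYD2 KO, and the direction was not the same for all of them. *Dcn*, the most abundant, was at 13.9, 311 and 257 FPKM in Flox and at 25.6, 383 and 350.4 FPKM in SMYD2 KO, higher in each numbered pair (log2 fold change 0.53, limma adjusted p = 0.890). With single libraries left out its log2 fold change ran from -0.89 to 1.79, so that its sign turned. *Lum* was at 0, 1.31 and 1.17 FPKM in Flox and at 0.26, 14.5 and 10.4 FPKM in SMYD2 KO (log2 fold change 1.82, limma adjusted p = 0.342, or 7.40e-05 in replicates 2 and 3 alone and 0.0231 without SMYD2 KO replicate 1). Both overlapped between the groups, and the remaining 4 markers had log2 fold changes below 0. *Pdgfra* was at 18.1, 31.9 and 29.8 FPKM in Flox and at 11.8, 4.85 and 7.10 FPKM in SMYD2 KO, with no overlap (log2 fold change -1.66, limma adjusted p = 0.0601, or 0.000120 in replicates 2 and 3 alone and 0.0265 without SMYD2 KO replicate 1). *Pi16*, whose groups overlapped, was at 1.26, 7.59 and 8.18 FPKM in Flox and at 0.37, 2.99 and 1.08 FPKM in SMYD2 KO (limma adjusted p = 0.304, or 0.0127 in replicates 2 and 3 alone). *Dpt* was at 144, 90.3 and 65.5 FPKM in Flox and at 3.31, 1.15 and 0.63 FPKM in SMYD2 KO (log2 fold change -5.28, limma adjusted p = 0.00417). *Ly6a* was at 52.6, 378 and 327 FPKM in Flox and at 36.4, 141 and 130.1 FPKM in SMYD2 KO (log2 fold change -1.09, limma adjusted p = 0.0404 with the replicate block and 0.552 without). Its log2 fold change ran from -1.99 to -0.46 with single libraries left out. The part of mesothelial, epithelial or fibroblast cells in the cadherin values was not tested.

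Markers of the remaining types were low in most libraries. Of 7 endothelial markers 6 were in the table, with a sum of 1.42, 1.83 and 2.04 FPKM in Flox and of 1.75, 5.40 and 2.99 FPKM in SMYD2 KO, led by *Kdr*, and *Cdh5*, the cadherin that defines endothelium, at no more than 0.01 FPKM. The 5 macrophage markers summed to at most 8.96 FPKM, led by *Cd68*, with *Ptprc* and *Adgre1* at no more than 0.02 and 0.02 FPKM. Of 5 glial markers 4 were in the table and summed to 1.28, 2.38 and 1.81 FPKM in Flox and to 2.34, 13.3 and 8.49 FPKM in SMYD2 KO, led by *S100b*, with *Sox10* listed at 0 in all libraries but SMYD2 KO replicate 1. These defining markers were thus at or near 0. The 2 myoblast markers in the table, of 4 listed, summed to at most 0.02 FPKM, led by *Pax7*. The 3 adipocyte markers summed to at most 6.24 FPKM except in SMYD2 KO replicate 1, where *Fabp4* alone was at 119 FPKM and *Plin1* was listed at 0. The 3 proliferation markers, led by *Top2a*, summed to 82.1, 53.1 and 66.0 FPKM in Flox and to 55.6, 51.5 and 30.7 FPKM in SMYD2 KO. None of the tested genes of these 6 lists was called in limma with or without the block.

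Some of them passed in other fits, of which that of replicates 2 and 3 alone called 29.0% of all tested genes. *S100b* was at 0.34, 1.38 and 1.02 FPKM in Flox and at 0.98, 12.7 and 7.40 FPKM in SMYD2 KO (limma adjusted p = 0.236, or 0.000832 in replicates 2 and 3 alone and 0.0207 without SMYD2 KO replicate 1). *Kdr* was at 0.47, 0.58 and 0.84 FPKM in Flox and at 0.96, 5.15 and 2.96 FPKM in SMYD2 KO, with no overlap (limma adjusted p = 0.186, or 0.00260 and 0.0277 in these 2 fits). *Pecam1*, of the same list and too low to be tested, lay the other way without overlap, at 0.56, 0.88 and 0.92 FPKM in Flox and at 0.12, 0.18 and 0 FPKM in SMYD2 KO, and *Tek*, *Vwf* and *Emcn* were at no more than 0.10, 0.22 and 0.42 FPKM. In replicates 2 and 3 alone the macrophage markers *Csf1r*, higher in SMYD2 KO, and *Lyz2*, lower there, also passed (limma adjusted p = 0.0192 and 0.00294). The part of these cell types in the cadherin and catenin values was not tested.

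The 8 tested of 9 proteases and secretases that release cadherin fragments gave 0 calls in limma without a block, with 4 at an unadjusted p under 0.05, and 2 calls with the block. Over all tested genes 2.44% were called without the block and 10.4% with it. Without it 2556 of 12565 had an unadjusted p under 0.05. *Adam15* was at 32.4, 43.4 and 43.9 FPKM in Flox and at 53.0, 75.0 and 72.5 FPKM in SMYD2 KO (log2 fold change 0.73, limma adjusted p = 0.0208 with the block and 0.108 without, or 0.0477 without SMYD2 KO replicate 1). *Psen2*, a presenilin of gamma-secretase, was at 32.3, 29.3 and 26.4 FPKM in Flox and at 22.6, 9.75 and 11.2 FPKM in SMYD2 KO (log2 fold change -1.05, limma adjusted p = 0.0433 with the block and 0.125 without, or 0.0106 without SMYD2 KO replicate 1). Neither overlapped between the groups. *Adam10*, a sheddase of N-cadherin, was at 45.3, 54.8 and 54.1 FPKM in Flox and at 75.2, 65.2 and 64.1 FPKM in SMYD2 KO (limma adjusted p = 0.167). *Mmp3* and *Ncstn* had means of 182 and 76.2 FPKM and were not called with or without the block. *Ncstn* passed as higher in SMYD2 KO in replicates 2 and 3 alone (log2 fold change 0.44, limma adjusted p = 0.0149).

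Genes that set the level or the nuclear role of beta-catenin, 13 of 16 tested, gave 0 calls in limma with or without the block, with 1 at an unadjusted p under 0.05 without it and 3 with it. Over all tested genes these counts were 2556 and 4028 of 12565. The log2 fold changes of the list ran from -0.39 to 0.22 around a median of 0.00. The most abundant were *Csnk1a1*, *Gsk3a* and *Bcl9l*, with means of 99.1, 59.0 and 30.2 FPKM. *Lef1*, *Tcf7* and *Axin2*, named after their values were seen, were at no more than 0.02, 0.19 and 0.50 FPKM, too low to be tested. *Axin2* was at 0.09, 0.13 and 0.01 FPKM in Flox and at 0.13, 0.50 and 0.40 FPKM in SMYD2 KO. *Tcf7* was at 0.11, 0.19 and 0.16 FPKM in Flox and at 0.07, 0.04 and 0.15 FPKM in SMYD2 KO. The groups overlapped for both.

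Of the partners of T-cadherin and the other atypical cadherins 6 of 12 were tested, with 0 calls in limma without a block, 2 at an unadjusted p under 0.05, and 1 call with the block. These counts stand beside 2.44% of all tested genes called without the block, 2556 of 12565 at that unadjusted p and 10.4% called with the block. *Clstn1*, a calsyntenin, was at 9.44, 25.4 and 24.8 FPKM in Flox and at 26.7, 49.4 and 53.0 FPKM in SMYD2 KO (log2 fold change 1.14, limma adjusted p = 0.0177 with the block and 0.212 without). Every SMYD2 KO library was above every Flox library, although replicate 1 was the lowest of each group. *Fat1* and *Lrp6*, the other abundant genes of that list, had means of 81.9 and 27.1 FPKM and were not called with or without the block. In replicates 2 and 3 alone, where 29.0% of all tested genes passed, both did so, in opposite directions. *Fat1* was higher in SMYD2 KO (log2 fold change 0.84, limma adjusted p = 0.00952) and *Lrp6* lower (-0.44, limma adjusted p = 0.0309).

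**Figure D5:**
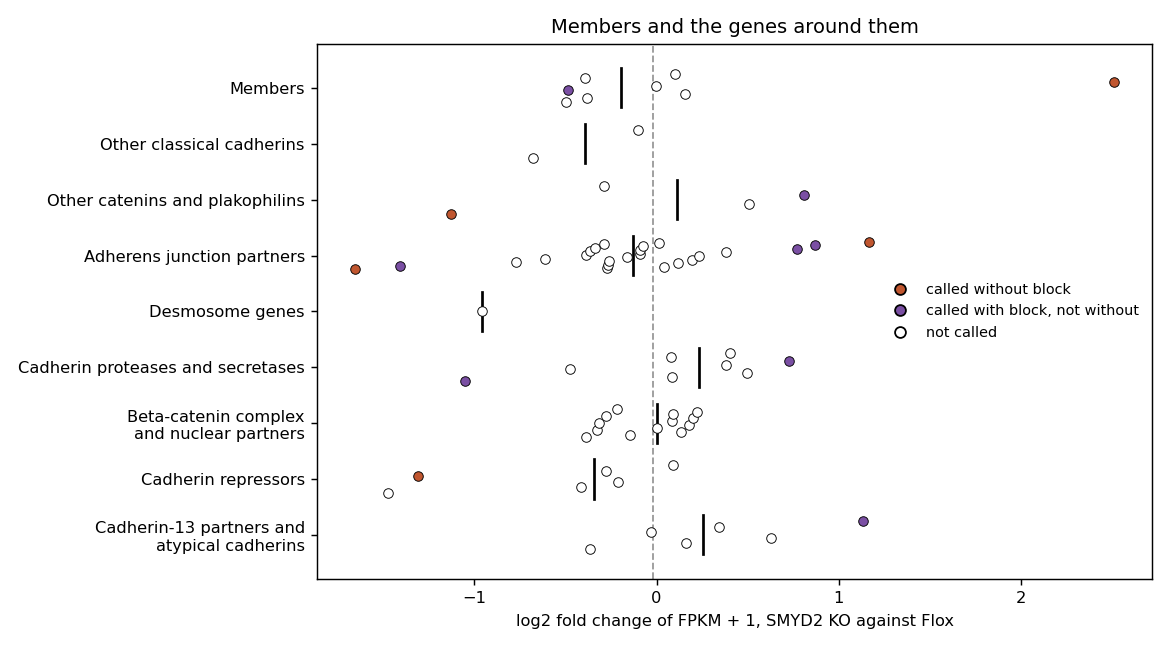
Log2 fold change of FPKM + 1 in SMYD2 KO against Flox (x axis) for the tested members and the tested genes of 8 lists (y axis), with list medians as black bars and the median of all tested genes as a dashed line. Orange points were called at an adjusted p under 0.05 without a block and purple points with the replicate block and not without it, and open points were not called; called genes lay on both sides of 0, and the beta-catenin list stayed between -0.39 and 0.22.

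Over the 6 libraries the tested genes most like *Cdh2* by Pearson's r of log2(FPKM + 1) were *Osbpl3* (0.994), *Col4a2* (0.991) and *Nol9* (0.987). *Col4a2*, for example, was at 146, 91.7 and 103 FPKM in Flox and at 31.4, 83.7 and 61.7 FPKM in SMYD2 KO, lowest in SMYD2 KO replicate 1 as *Cdh2* was. Those most like *Cdh13* were *Cfb* (0.997), *Vcl* (0.995) and *Sdf4* (0.988). *Vcl*, the gene of vinculin, was at 139.6, 158 and 161 FPKM in Flox and at 86.2, 191 and 221 FPKM in SMYD2 KO, which again put SMYD2 KO replicate 1 below all and replicates 2 and 3 above all Flox libraries. These likenesses were picked as the highest of 12565 genes, rest on 6 libraries that share the division by replicate, and are a description only.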

How the data were processed

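RNA-seq values of 3 Flox and 3 SMYD2 KO libraries, grouped by their labels, were used. Per the methods, reads were cleaned with SOAPnuke, HISAT and Bowtie2 served for mapping, and RSEM gave gene levels, which the authors deposited as FPKM with 2 decimals. Their versions and the genome build are not given in the sources used here. RSEM shares fragments that fit several genes, so values of related genes carry that uncertainty.

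Here FPKM + 1 was converted to log2, and the 12565 genes averaging 0.5 FPKM or more entered limma 3.58.1 under R 4.3.3 (lmFit and eBayes, robust and with a trend), with Benjamini-Hochberg adjustment over all of them. Calls are at an adjusted p under 0.05. The fit was tested on simulated data, where the share of false calls, averaged over draws, stayed under the threshold, while single draws of the fit with the replicate block missed the limits first set for them. Exact permutation tests and figures used Python 3.11.15, numpy 2.4.6, pandas 2.3.3, scipy 1.17.1 and matplotlib 3.10.9.

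Replicate numbers come from the sample titles. Deviations from the group means correlated across genes between same-numbered libraries (0.61, 0.46 and 0.53 for replicates 1, 2 and 3), above 0.1 in each pair, so the numbers were taken to pair the libraries. Replicates 2 and 3 of different groups also correlated (0.46 and 0.44). Flox replicate 2 correlated at 0.460 with SMYD2 KO replicate 2 and at 0.461 with SMYD2 KO replicate 3. The correlations thus set replicate 1 apart in both groups but hardly told replicates 2 and 3 from each other. For these the replicate block rests on the titles.

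Depth was fitted so that low FPKM values of 1325 genes with 1 transcript fell on whole fragments. Between 70.1% and 73.6% lay no more than 0.15 from one, against 30% for values placed at random, so depth and fragment numbers are approximate and cover counting error only.

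Named genes were the members, *Smyd2*, from each list the genes called with or without the block (at most 6) and the 3 with the highest mean, and the 3 genes most like each of the 2 most abundant cadherins. Markers are named with their lists. The members and lists were chosen with earlier results of these data known. Alternatives were another pseudocount, other filters, 2 blocks, replicates 2 and 3 alone, each library left out, 2 scalings and the cutoffs of the methods. Listed genes without a matching symbol were left out. A gene of the lists that the rule names is counted but not reported here.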

Additional observations from a re-analysis of the deposited data

How the results depend on the processing

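Without a block 306 genes, 1 member and 4 genes of the junction lists were called. With the replicate block, which pairs same-numbered libraries, these counts were 1312, 2 and 11. A block that sets replicate 1 apart from the other replicates gave 2550, 3 (*Cdh11*, *Ctnna1* and *Jup*) and 18, and replicates 2 and 3 alone gave 3650, 4 and 25. Fold changes beyond 2 at an adjusted p below 0.01 left 53, 0 and 1. The member count was 0 with a pseudocount of 0.1 and 0 with no filter on low FPKM. Leaving out single libraries gave 34 to 686 genes, 0 to 1 members and 0 to 9 list genes. Genes called numbered 34 and 36 without Flox replicates 2 and 3, 55 and 39 without SMYD2 KO replicates 2 and 3, and 686 without SMYD2 KO replicate 1. These fits hold fewer libraries, and the cause of the spread among them was not tested.

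The log2 fold change of *Cdh3* turned in replicates 2 and 3 alone (-0.0309) and ran from -0.32 to 0.44 with single libraries left out. That of *Cdh13* ran from -0.29 to 0.69. That of *Ctnnb1* turned with TPM rescaling (0.12) and quantile normalization (0.0855) and ran from -0.20 to 0.11. None of these passed the test in a fit where its sign turned. Of 392 values of 28 genes under the alternatives, 300 kept their direction and side of the threshold, 31 lost a call, 50 gained one and 11 turned. Among the members, *Smyd2* and the named genes of the junction and marker lists, the replicate block changed no other call than those given beside their values. Of these genes, *Ctnna1*, *Snai2*, *Tcf3*, *Dcn*, *Lum*, *Pdgfra*, *Pi16*, *Kdr*, *S100b*, *Csf1r* and *Ncstn* were called with the block for replicate 1 and not with the replicate block. For *Cdh6*, at about 2 fragments in 1 library, depth limits what can be seen.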
